A study of Rattus norvegicus with 6 samples.

Results

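The genes for the protein subunits of the cytosolic ribosome were examined in the metrial gland of pregnant rats. They were taken by symbol: Rpl or Rps followed directly by a digit, with at most 1 letter after it, and also Rplp0, Rplp1, Rplp2 and Rpsa, without the Rps6k kinases and the pseudogenes. Probe sets annotated with 1 symbol gave 44 such genes, 30 of the large subunit and 14 of the small one, among 14218 genes with a probe set of their own. Rplp1 and Rplp2 were not among them. The brightest probe set of each gene was used. Of the 44 genes, 41 passed the filter on low signal and were tested, 27 of the large and 14 of the small subunit.

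The hypoxia group was 3 arrays from rats held at 10.5% oxygen from gestation day 6.5 to day 13.5, and the ambient group was 3 arrays from rats kept at 21% oxygen. All arrays measured whole metrial gland at day 13.5, a tissue of the uterine wall at the implantation site in which natural killer cells, vessels, decidual stroma and invading trophoblast are found. Neither strain, age nor any allele is stated, and the labels do not say that replicates are separate animals, so that each p-value here reflects how far these samples lie apart, and that distance may be technical. In whole tissue, fewer cells of a type and less RNA per cell cannot be told apart. Prf1 and Gzmb, natural killer granule genes, and Prl8a2, a decidual prolactin, were all above the highest signal of the bacterial control probe sets.

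Each ribosome joins a small subunit, which reads the mRNA, to a large subunit, which forms the peptide bond. The subunit proteins are made in matched amounts, and their mRNAs are among the most abundant of growing cells. Most of these mRNAs begin with a pyrimidine tract (the terminal oligopyrimidine, or TOP, tract) through which the kinase mTOR and the protein Larp1 control their translation, so their supply to ribosomes can change with little change in mRNA amount. Low oxygen is known to restrain mTOR in many cell types.

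The starts of 8 of these genes are printed because they span the range of the results: Rpsa, Rps3, Rpl24 and Rpl18 had the most negative differences among the bright members, Rpl35 and Rps24 stood at the other end, and Rplp0 and Rpl19 show the pyrimidine tract. Each stretch is 60 bases before and 30 bases from the annotated gene start, 5′ to 3′, from RefSeq on build GRCr8. Capitals mark CTTCCG on either strand, the core of sites for ETS-family activators, and the pyrimidine run that begins at the start where there is one.
Rpsa (chr8:128728819-128728908, plus strand): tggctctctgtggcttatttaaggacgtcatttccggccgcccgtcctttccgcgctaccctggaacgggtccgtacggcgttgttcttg
Rps3 (chr1:163195747-163195836, minus strand): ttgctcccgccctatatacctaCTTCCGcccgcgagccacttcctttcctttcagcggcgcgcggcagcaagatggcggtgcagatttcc
Rpl24 (chr11:58128376-58128465, minus strand): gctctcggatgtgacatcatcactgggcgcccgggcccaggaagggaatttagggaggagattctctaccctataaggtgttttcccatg
Rpl18 (chr1:105325210-105325299, plus strand): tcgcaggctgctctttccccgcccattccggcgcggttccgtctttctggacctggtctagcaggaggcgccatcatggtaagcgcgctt
Rpl35 (chr3:43165892-43165981, minus strand): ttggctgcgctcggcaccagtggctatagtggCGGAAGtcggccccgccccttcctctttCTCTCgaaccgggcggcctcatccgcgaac
Rps24 (chr16:96457-96546, plus strand): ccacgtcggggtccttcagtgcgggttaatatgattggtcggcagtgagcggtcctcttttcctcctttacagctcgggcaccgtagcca
Rplp0 (chr12:46718361-46718450, minus strand): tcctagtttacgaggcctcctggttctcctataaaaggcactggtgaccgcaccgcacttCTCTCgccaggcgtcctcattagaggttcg
Rpl19 (chr10:83519004-83519093, plus strand): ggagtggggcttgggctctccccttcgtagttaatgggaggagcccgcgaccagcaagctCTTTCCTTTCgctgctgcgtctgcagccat

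Promoters of 37 of the 44 genes were in the RefSeq table, and those of Rpl23a, Rpl27, Rpl30, Rpl37a, Rpl7, Rps29 and Rps9 were not shown. Over 300 bases, 250 before and 50 after the start, CTTCCG or its complement CGGAAG stood in 17 of the 37 (45.9%), against 16.6% of all 33469 promoters. CTCTTTC or GAAAGAG stood in 12 (32.4%, against 7.91%). ACGTG or CACGT, letters of the site bound by hypoxia-inducible factors, stood in 13 (35.1%, against 19.3%), and TATAAA or TTTATA in 5 (13.5%, against 14.2%). These searches covered both strands, and CTTCCG and CTCTTTC can each overlap a pyrimidine tract. A start with C as the first base and C or T in each of the next 4 was found in 11 genes (29.7%, against 2.63%), among them Rpl19, Rplp0 and Rpl35 above. Among tested genes the median log2 difference was -0.058 in the 10 with that start and -0.088 in the 25 without it, and it was -0.059 in the 13 with ACGTG and -0.072 in the 22 without it. The differences between these medians were not tested. Only a run at the annotated start itself was counted, and Rps3 and Rps24 above have pyrimidine runs just before or across it. Genes counted as without that start may therefore still have a TOP tract, and the split depends on the annotation.

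The ribosomal protein genes stood a few percent lower in hypoxia, by an amount that passed the test for Rpsa alone. Of 41 tested, 0 rose, 1 fell and 40 did not pass the threshold of an adjusted p of 0.05 in limma, where 5.99% of all 18625 tested probe sets passed it, 4.02% as higher and 1.97% as lower. Their median log2 difference, hypoxia minus ambient, was -0.066, which is -4.49% on the linear scale, against 0.003 over all tested probe sets. The sign was negative for 37 of the 41, where it was negative for 49.2% of all tested. The differences lay between -0.19 and 0.04. All 3 hypoxia arrays stood below all 3 ambient arrays for 21 of the 41, against 14.1% of all tested probe sets, and above them for 0, against 15.8%. At an unadjusted p under 0.05, 10 were lower and 0 higher, where 10.6% and 13.1% of all tested were. The 10 became 3 without ambient replicate 2 or hypoxia replicate 1, and 4 without ambient replicate 1 or hypoxia replicate 2, and the count was 2 with no variance trend, 4 with the replicate block, 6 with median centring and 14 with 75th percentile centring. The median stayed between -0.078 and -0.053 when any 1 array was left out. The 95% intervals of the 38 bright members (mean signal at least 12) lay between -0.29 and 0.14, of which 10 lay wholly below 0.

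Rpsa encodes the protein near the mRNA exit of the small subunit, also known as the laminin receptor precursor. Its log2 signal was 13.37, 13.37 and 13.40 in hypoxia, against 13.54, 13.60 and 13.58 in ambient. Every hypoxia array was below every ambient array, with a gap wider than the range within either group. The difference was -0.195 (SE 0.040, 95% interval -0.29 to -0.10, limma adjusted p = 0.0354), or 12.6% lower. Its call was kept without hypoxia replicate 3 and lost without any other 1 array, with adjusted p between 0.0725 and 0.115, and it was lost with no variance trend (0.12). Over 17 alternatives its adjusted p lay between 0.0223 and 0.12, and it was called in 9. A second probe set of Rpsa gave 13.20, 13.34 and 13.25 in hypoxia, against 13.39, 13.51 and 13.40 in ambient, a difference of -0.17 (limma adjusted p = 0.107). A further one gave -0.119 (limma adjusted p = 0.266). Both have the same sign as the first and did not pass. Rpsa and most other members have many processed pseudogenes, whose transcripts a probe set may also bind.

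Rps3, at the entry of the mRNA channel and also active in DNA repair, had the next largest difference. Its signal was 13.63, 13.60 and 13.65 in hypoxia, against 13.75, 13.83 and 13.78 in ambient, with no overlap. The difference of -0.158 (SE 0.041, limma adjusted p = 0.0622) did not pass. It passed under 4 of the 17 alternatives: the 60% filter (0.0434), array weights (0.0440), 75th percentile centring (0.0456) and quantile normalization (0.0495). Rack1, a scaffold protein of the small subunit head that the symbol rule does not take, showed 13.50, 13.58 and 13.58 in hypoxia, against 13.67, 13.71 and 13.70 in ambient. Its groups did not overlap either, and its difference of -0.136 (limma adjusted p = 0.103) did not pass.

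**Figure D1:**
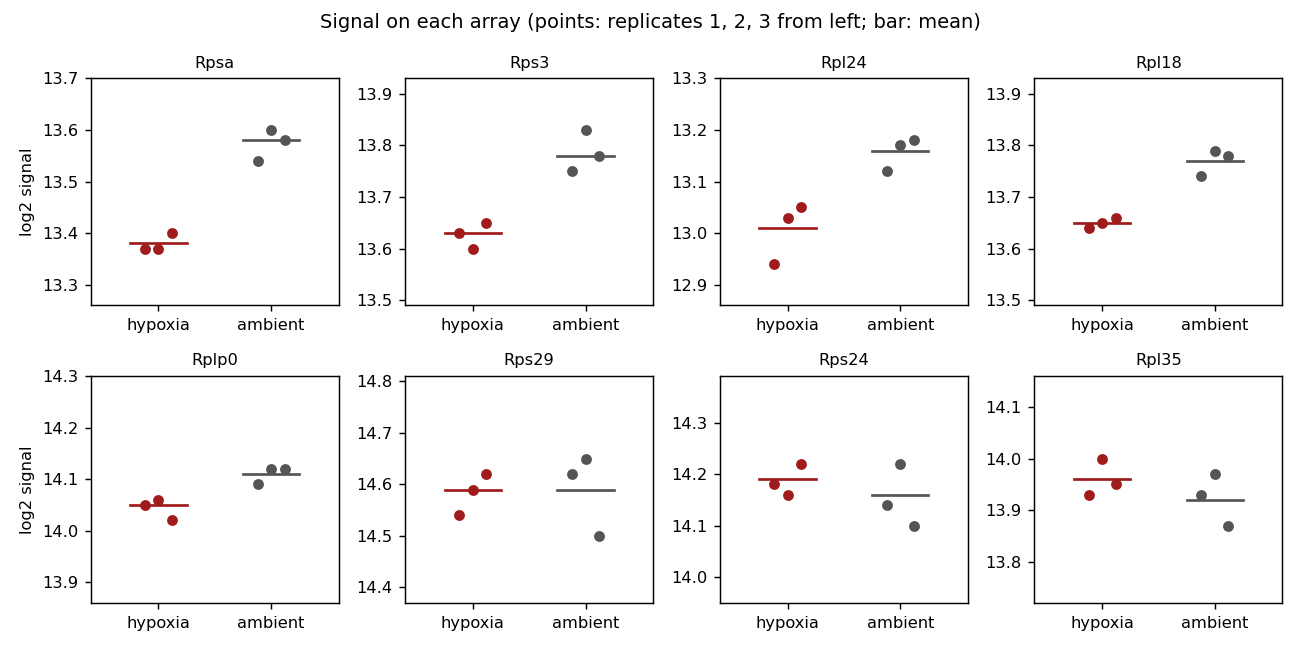
Log2 signal of 8 ribosomal protein genes on each array (points, replicates 1 to 3 from left to right) with group means (bars), hypoxia on the left and ambient on the right; every panel spans the same log2 range. The groups stand apart for Rpsa, Rps3, Rpl24, Rpl18 and Rplp0 and overlap for Rps29, Rps24 and Rpl35.

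Other proteins along the mRNA path of the small subunit had smaller negative differences. The group held 7 genes with a median of -0.068, of which Rpsa was the only one called, against 5.99% of all tested. Rps9, which lines the entry with Rps3, was at 13.39, 13.41 and 13.46 in hypoxia and 13.47, 13.50 and 13.50 in ambient, a difference of -0.07 (limma adjusted p = 0.346). Rps15, whose tail reaches the decoding site, was at 13.59, 13.61 and 13.63 in hypoxia and 13.66, 13.71 and 13.66 in ambient. Neither pair of groups overlapped. Rps23, which helps to check codon pairing, was at 13.95, 13.94 and 14.01 in hypoxia and 14.02, 14.04 and 13.97 in ambient, and Rps3a, on the exit platform, at 14.00, 14.07 and 14.11 in hypoxia and 14.10, 14.18 and 14.08 in ambient. Ambient replicate 3 lay among the hypoxia arrays for Rps23, and ambient replicates 1 and 3 did so for Rps3a. Rps28, at the exit, differed by -0.023 with overlapping groups.

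The remaining bright small subunit genes ran from Rps15a, at -0.092, to Rps24, at 0.029, and the dim Rps13 and Rps27l are given further on. Rps15a was lowest on hypoxia replicate 1 (13.68), with 13.78 and 13.86 on the other hypoxia arrays and 13.88, 13.88 and 13.83 in ambient. Rps6, the phosphorylation target of the S6 kinases, was at 14.25, 14.20 and 14.28 in hypoxia and 14.30, 14.30 and 14.27 in ambient. Its difference of -0.051 had a 95% interval from -0.14 to 0.04. Rps16 (-0.026) had groups that overlapped. Rps29, a small zinc-binding protein of the head and the brightest member, was at 14.54, 14.59 and 14.62 in hypoxia and 14.62, 14.65 and 14.50 in ambient, a difference of -0.002 with an interval from -0.12 to 0.11.

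In the large subunit the stalk and central protuberance genes had a median difference of -0.088. Of them 0 of 4 were called, where 5.99% of all tested probe sets were. Rplp0, the base of the stalk that recruits elongation factors and a common reference gene in quantitative PCR, was at 14.05, 14.06 and 14.02 in hypoxia and 14.09, 14.12 and 14.12 in ambient. The groups did not overlap, and the difference was -0.069 (limma adjusted p = 0.306). Rpl12, beside it, differed by -0.111, with ambient replicate 3 (13.96) just below hypoxia replicate 3 (13.97). Rpl5 and Rpl11 travel with the small ribosomal RNA of the large subunit and, when unassembled, bind Mdm2 and so stabilise p53. Rpl11 was at 13.88, 13.79 and 13.90 in hypoxia and 13.95, 13.99 and 13.95 in ambient, a difference of -0.107 (limma adjusted p = 0.197). Rpl5 was at 13.93, 13.94 and 13.96 in hypoxia and 13.99, 14.03 and 13.93 in ambient, a difference of -0.039. Rpl11 groups were separate and Rpl5 groups overlapped, and the difference between these 2 genes was not tested.

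Genes for the catalytic core and the peptide tunnel had a median of -0.043 over 6 genes, with 0 called, against 5.99% of all tested. Rpl3, which reaches toward the peptidyl transferase centre, was at 14.06, 14.08 and 14.11 in hypoxia and 14.16, 14.18 and 14.19 in ambient, and Rpl4, at the tunnel's narrow point, at 13.49, 13.40 and 13.52 in hypoxia and 13.54, 13.58 and 13.55 in ambient. Both had separate groups, with differences of -0.09 and -0.088. Rpl23a, at the tunnel exit, had the smallest residual SD of all members (0.0074), at 13.39, 13.38 and 13.40 in hypoxia and 13.46, 13.45 and 13.45 in ambient. Its difference was -0.059 (limma adjusted p = 0.388), and over the alternatives the adjusted p lay between 0.258 and 0.599. Rpl26 (-0.026) and Rpl35 (0.037), also at the exit, had overlapping groups. Rpl35 was at 13.93, 14.00 and 13.95 in hypoxia and 13.93, 13.97 and 13.87 in ambient, the most positive difference of the 41, with an interval from -0.06 to 0.14.

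The 4 genes for bridges to the small subunit all had hypoxia arrays below ambient arrays, against 14.1% of all tested probe sets, with a median of -0.082. Of them 0 were called lower, against 1.97% of all tested, and the grouping by role was made after values were seen. Rpl24 was at 12.94, 13.03 and 13.05 in hypoxia and 13.12, 13.17 and 13.18 in ambient, a difference of -0.15 (SE 0.048, limma adjusted p = 0.107). Rpl23 differed by -0.109, Rpl19 by -0.055 and Rpl41, the smallest ribosomal protein, by -0.035. Rpl41 had 14.12, 14.09 and 14.10 in hypoxia and 14.14, 14.14 and 14.13 in ambient. The nearest arrays of its groups all but touched.

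Of the other large subunit genes, Rpl18 had the largest difference, with 13.64, 13.65 and 13.66 in hypoxia and 13.74, 13.79 and 13.78 in ambient (-0.117, SE 0.038, limma adjusted p = 0.113). Rpl6 (-0.107), Rpl7a (-0.092), Rpl22 (-0.089), Rpl35a (-0.088), Rpl7 (-0.08) and Rpl27a (-0.05) also had separate groups, and Rpl21 (-0.075), Rpl14 (-0.058), Rpl13a (-0.054) and Rpl27 (-0.037) did not. None of these passed. Rpl13a, another common reference gene, was at 13.55, 13.63 and 13.54 in hypoxia and 13.62, 13.64 and 13.62 in ambient. Rpl34 was at 13.97, 13.91 and 13.94 in hypoxia and 13.93, 13.99 and 13.93 in ambient, and Rpl37a at 14.22, 14.25 and 14.22 in hypoxia and 14.23, 14.26 and 14.18 in ambient. Both differed by at most 0.012 in size.

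**Figure D2:**
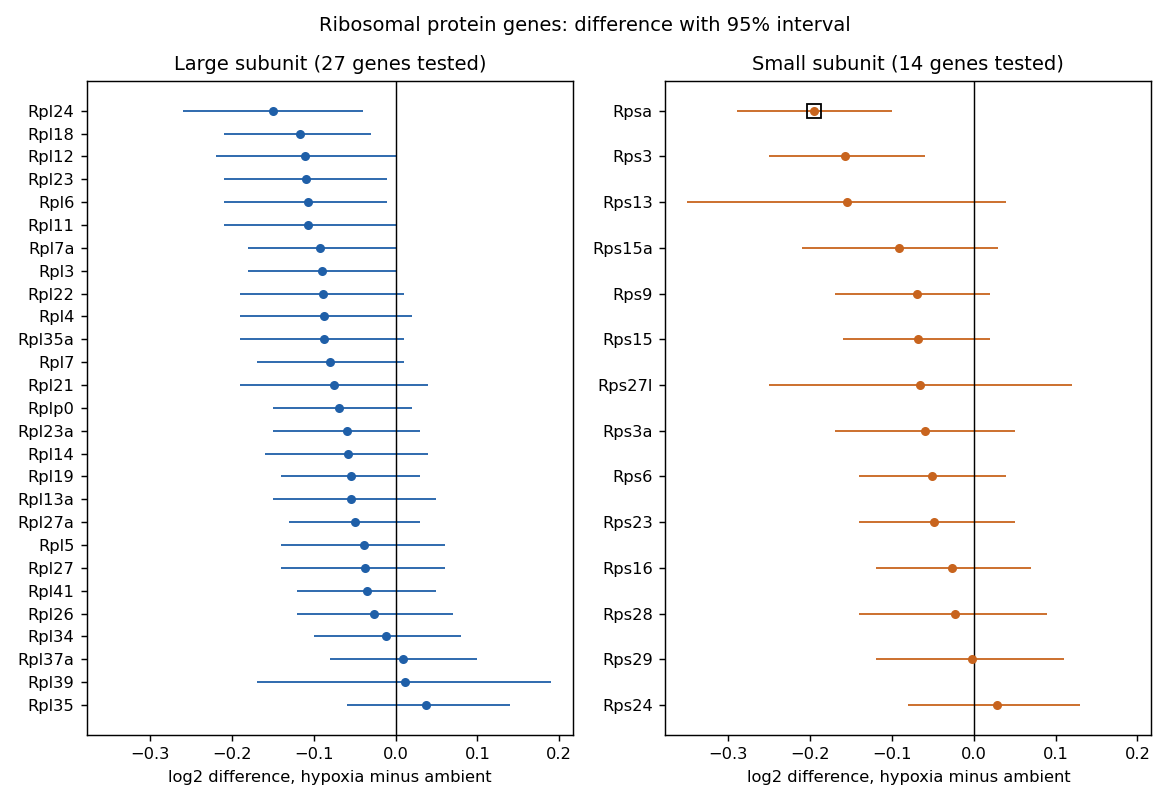
Log2 difference (hypoxia minus ambient) of each tested ribosomal protein gene with its 95% interval from limma, 27 large subunit genes on the left and 14 small subunit genes on the right. Rpsa, boxed, was the 1 gene past the threshold, and 37 of the 41 points lie left of 0.

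A few members gave weak signal at the probe set that carries their name alone. Rpl39, a short protein of the tunnel, was at 7.31, 7.43 and 7.40 in hypoxia and 7.29, 7.42 and 7.39 in ambient, a difference of 0.012. Rps27l, a close relative of Rps27 that p53 induces, was at 8.84, 8.91 and 9.04 in hypoxia and 8.92, 9.07 and 9 in ambient. Rps13 was at 5.94, 6.03 and 6.12 in hypoxia and 6.13, 6.21 and 6.21 in ambient (-0.155, limma adjusted p = 0.319). Groups overlapped for Rpl39 and Rps27l and were separate for Rps13. Rpl28, Rpl30 and Rpl3l, the last a form of Rpl3 known from striated muscle, were below the filter, and without it their differences were -0.15, -0.089 and 0.034 (limma adjusted p without the filter 0.535, 0.639 and 0.855). Second probe sets of Rpl3 (-0.15), Rpl7 (-0.042) and Rps24 (0.157) did not pass, and that of Rpl14 was below the filter. Rps24, a protein needed for processing of ribosomal RNA, was at 14.18, 14.16 and 14.22 in hypoxia and 14.14, 14.22 and 14.10 in ambient at its main probe set. At the dimmer one it was at 8.49, 8.48 and 8.48 in hypoxia and 8.21, 8.45 and 8.32 in ambient (limma adjusted p = 0.275). Every hypoxia array was above every ambient array there and not at the main one.

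A further 33 probe sets carried several symbols, at least 1 of them of a cytosolic ribosomal protein, and name no gene here. Of these 33, 0 rose and 0 fell by limma, against 4.02% and 1.97% of all tested. At an unadjusted p under 0.05, 3 were lower and 0 higher, where 10.6% and 13.1% of all tested were. The median difference was -0.051, and the sign was negative for 29, where it was negative for 49.2% of all tested. The hypoxia arrays were all below the ambient arrays for 10, against 14.1% of all tested. With them added to the members, the median difference was -0.059.

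The large and small subunits had nearly the same median difference. It was -0.069 over 27 large subunit genes and -0.063 over 14 small subunit genes, a gap of -0.0061. That gap was 0.0039 with array weights and 0.0174 without hypoxia replicate 3, so its sign was not stable. Hypoxia arrays were all below ambient arrays for 16 of the 27 large subunit genes and 5 of the 14 small subunit genes, against 14.1% of all tested. The lower and upper quartiles of the differences lay at -0.091 and -0.038 for large subunit genes and at -0.086 and -0.032 for small subunit genes. These are descriptions, since members were not tested as a list.

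The ribosomal protein genes moved together from array to array. After each gene's mean over all arrays was subtracted, the median over the 41 genes was -0.052, -0.038 and -0.013 on hypoxia replicates 1, 2 and 3, and 0.023, 0.058 and 0.018 on ambient replicates 1, 2 and 3. Hypoxia replicate 1 was the lowest of the 6 arrays for 21 genes, and ambient replicate 2 the highest for 27. None of the 41 genes was below its own mean on ambient replicate 2. The medians of the 2 groups did not overlap, and hypoxia replicate 3 and ambient replicate 3 lay nearest to each other. Deviations from the group means correlated at a median of 0.32 over pairs of the 38 bright members, against 0.01 over pairs of 431 other bright probe sets, across 6 arrays that all genes share. Over all tested probe sets the same medians lay between -0.018 and 0.010.

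**Figure D3:**
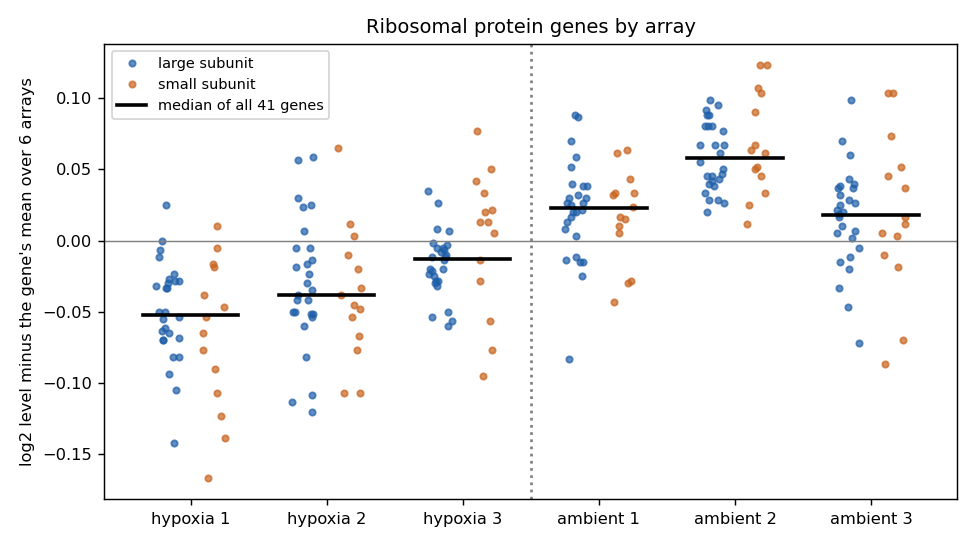
Log2 signal of the 41 tested genes minus each gene's mean over the 6 arrays, for hypoxia arrays on the left and ambient arrays on the right; points are genes by subunit and bars are medians. The medians are -0.052, -0.038 and -0.013 in hypoxia and 0.023, 0.058 and 0.018 in ambient, with the extremes on hypoxia replicate 1 and ambient replicate 2.

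These genes lay near the top of the signal range. Of the 41, 36 were among the 187 probe sets with the highest 1% of mean signal (at least 13.11), and the highest value on any array was 14.90. Signal also depends on a probe's affinity, so this is no ranking of mRNA amounts. The median residual SD was 0.039 for the members, 0.069 for the 431 other probe sets with a mean of at least 12, and 0.112 for all tested. All 41 members were below the median of all tested. The other bright probe sets had a median difference of -0.019, with 242 of 431 negative, 28 called higher and 19 lower, and differences between -0.79 and 2.26. The 38 bright members had a median of -0.064, with 35 negative. All hypoxia arrays lay below all ambient arrays for 20 of these 38 and for 95 of the 431, and above them for 0 and 78. At an unadjusted p under 0.05 in limma, 10 of the 38 were lower and 0 higher, against 76 and 78 of the 431. How far the signal near the ceiling understates a change was not tested.

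**Figure D4:**
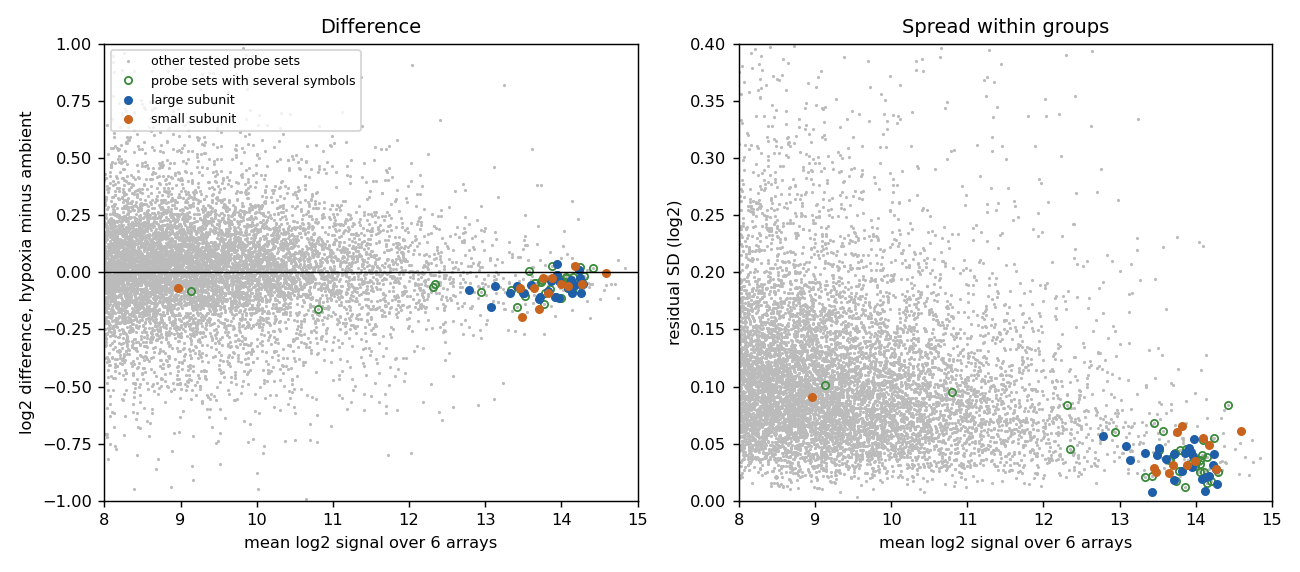
Log2 difference (left, hypoxia minus ambient) and residual SD (right) of tested probe sets against mean log2 signal over 6 arrays, from a signal of 8 upward and within the plotted limits, with members coloured by subunit and probe sets of several symbols as open circles; Rpl39 and Rps13 lie below the plotted signal. The members sit at high signal, slightly below 0 on the left and near the bottom of the spread on the right.

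Other genes of translation were measured on the same arrays, where 4.02% of all tested probe sets passed as higher and 1.97% as lower. Of 14 tested genes for elongation factors and other mRNAs with a TOP tract, 0 rose, 2 fell and 12 did not pass, and 13 had a negative sign (median -0.098). This list also holds the initiation factors Eif3f (-0.079), Eif3h (-0.16, limma adjusted p = 0.1005), Eif3k (-0.15), Eif3l (-0.176) and Eif4b (-0.206), none of them called. Hnrnpa1, an RNA-binding protein, fell by 0.38 (SE 0.059, limma adjusted p = 0.0146), with 10.85, 10.87 and 10.99 in hypoxia and 11.31, 11.24 and 11.31 in ambient. Naca, which binds nascent chains at the tunnel exit, was at 12.94, 12.88 and 12.95 in hypoxia and 13.08, 13.15 and 13.15 in ambient (-0.206, limma adjusted p = 0.0428). The call of Hnrnpa1 was lost without ambient replicate 3 (0.0618) or hypoxia replicate 1 (0.0544), and that of Naca without any 1 array (0.0574 to 0.14), with no filter (0.0528), no variance trend (0.117) and the replicate block (0.0648). Eef1a1, which delivers aminoacyl-tRNA, differed by -0.054, and Eef2, which drives translocation, by -0.017.

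Of 24 tested initiation factors outside the TOP list, 0 rose and 0 fell, 10 were negative and the median was 0.024. Among these 24 the smallest p was that of Eif3i (-0.179, limma adjusted p = 0.13), then Eif4a1 (-0.146, 0.166). The split of initiation factors between the lists bears on both medians. Of 58 tested genes for RNA polymerase I and ribosome assembly, 1 rose (Ebna1bp2, by 0.29), 0 fell and 57 did not pass, with a median of -0.011. Both quantile normalization and 75th percentile centring gave 0 higher and 1 lower for that list. Of 73 mitochondrial ribosomal protein genes, 1 rose (Mrps22, by 0.39), 0 fell, and the median was 0.017 with 30 negative, which became -0.013 with quantile normalization and -0.015 with 75th percentile centring. The call of Mrps22 was lost without any 1 array, and that of Ebna1bp2 was kept only without hypoxia replicate 2. Both were also lost with quantile normalization, 75th percentile centring, no filter and no variance trend (adjusted p between 0.0528 and 0.0677), and each was made in 7 of 17 alternatives. Of all tested probe sets, 4.02% passed as higher and 1.97% as lower. The differences between these lists and the ribosomal protein genes were not tested.

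Regulators of translation were measured beside them, on arrays where 4.02% of all tested probe sets passed as higher and 1.97% as lower. Of 33 tested genes for mTOR and stress control, 2 rose, 0 fell and 31 did not pass (median 0.067). Cdkn1a, a p53-induced inhibitor of the cell cycle, was at 9.43, 9.9 and 10.29 in hypoxia and 8.69, 8.7 and 9 in ambient, a rise of 1.07 (SE 0.198, limma adjusted p = 0.0253). Sesn1, a p53 target that restrains mTOR, was at 9.69, 9.83 and 9.56 in hypoxia and 9.32, 9.21 and 9.22 in ambient, a rise of 0.445 (limma adjusted p = 0.0256). Leaving out hypoxia replicate 2 or whichever ambient array ended the call of Cdkn1a, with adjusted p up to 0.0806. For Sesn1 the call survived only the loss of hypoxia replicate 3, with adjusted p up to 0.0939. Over this list 21 differences were positive and 12 negative. Deptor (-0.307, limma adjusted p = 0.138) and Ddit4 (-0.291, 0.176) were lower and did not pass. Mtor (0.287, limma adjusted p = 0.0524) and Ddit3 (0.308, 0.0580) were higher on every hypoxia array and did not pass either. At an unadjusted p under 0.05 in limma, 9 of the 33 were higher and 2 lower, where 13.1% and 10.6% of all tested were. Mdm2 had overlapping groups, at 9.93, 9.75 and 9.99 in hypoxia and 9.89, 9.86 and 9.92 in ambient. The activity of p53 or mTOR was not tested. Of 6 tested genes with Rps6k symbols, 4 had a positive difference and 2 a negative difference, among the latter Rps6kb1 (-0.164). Rps6ka2 rose by 0.498 (limma adjusted p = 0.0494), and the other 5 did not pass. That call was lost without any 1 array but hypoxia replicate 3 (up to 0.139), and with 75th percentile centring, no filter, the offset, no variance trend and the replicate block (0.0504 to 0.0658), so that it was made in 6 of 16 alternatives.

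**Figure D5:**
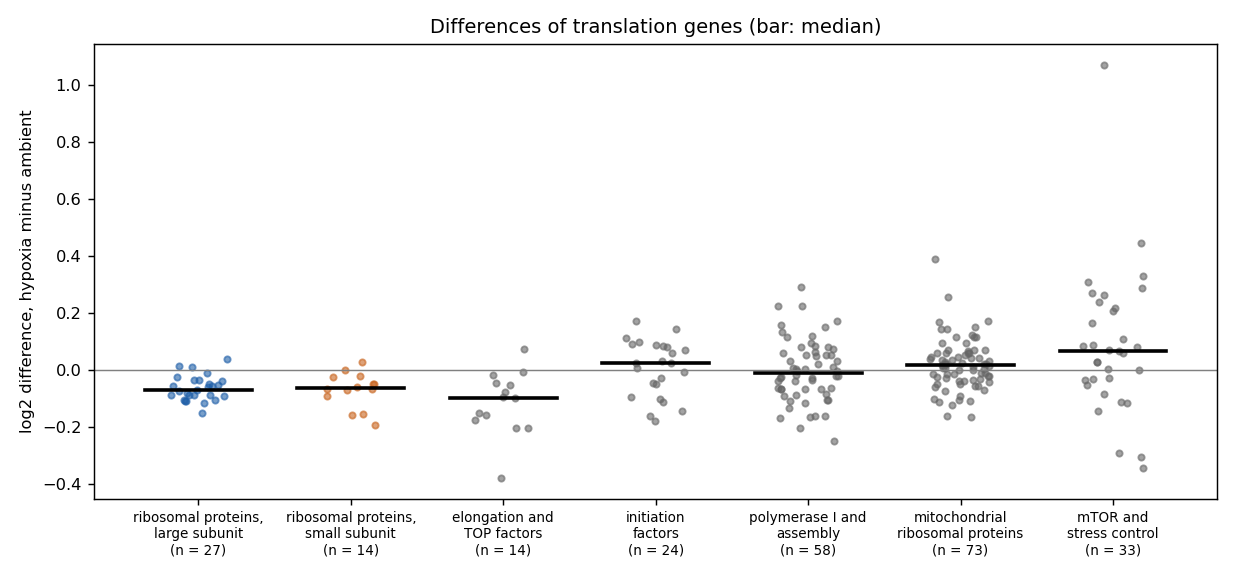
Log2 difference (hypoxia minus ambient) of each tested gene in 7 groups of translation genes, with medians as bars. The medians are -0.069 and -0.063 for the ribosomal protein groups and -0.098 for the elongation and TOP group, which holds some initiation factors. They are 0.024 for the other initiation factors, -0.011 for assembly genes, 0.017 for mitochondrial ribosomal proteins and 0.067 for mTOR and stress control.

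Markers of several cell types and 1 sign of RNA quality differed between the same groups. The summed linear signal of 14 natural killer cell markers was 38904 to 42897 in hypoxia and 47454 to 54061 in ambient. Of 13 tested, 6 were lower on every hypoxia array, against 14.1% of all tested probe sets, and 4 were called lower, against 1.97%. The brightest, Gzmb (-0.201) and Prf1 (-0.27), were not called. Klrd1 (0.523) and Gzmm (0.131) were higher and not called. For 9 T and B cell markers the sum was 3040 to 3860 in hypoxia and 4513 to 5647 in ambient. That sum mainly reflects Lck, with a mean log2 signal of 11.51, where Cd247, the next brightest, had 8.97. Of the 9 markers, 7 were tested, 6 of them were lower on every hypoxia array and 4 were called lower. Cd79b and Ms4a1, the B cell genes of that list, were not tested. For 16 trophoblast and placental prolactin markers the sum was 25214 to 34839 in hypoxia and 4574 to 13056 in ambient. Of 14 tested, 13 were higher on every hypoxia array, against 15.8% of all tested probe sets, and 10 were called higher, against 4.02%. For 9 red cell markers the sum was 19580 to 23401 in hypoxia and 7633 to 10502 in ambient, with 8 of 8 higher and 7 called. For 9 endothelial markers it was 7892 to 8510 in hypoxia and 6766 to 7081 in ambient, with 6 of 9 higher and 4 called. The sum was 29143 to 39723 in hypoxia and 23911 to 26157 in ambient for decidual stroma, and 1896 to 2115 in hypoxia and 2135 to 2504 in ambient for macrophages, without overlap. It was 38429 to 50216 in hypoxia and 38292 to 48760 in ambient for smooth muscle, and 1628 to 1783 in hypoxia and 1469 to 1767 in ambient for epithelium, with overlap. Of 6 tested macrophage markers, 1 was called lower, Cd163 (-1.046, limma adjusted p = 0.0034), and of 8 smooth muscle markers 0 were called. Of 9 tested decidual markers, 3 were higher on every hypoxia array and 2 were called higher, and Igfbp1 (-1.94) was lower on every hypoxia array. Of the bright ones, Prl8a2 differed by 1.73 (limma adjusted p = 0.0683), Des, also in the smooth muscle list, by 0.203 and Vim by 0.003. Of 6 tested epithelial markers, 4 were lower on every hypoxia array and 2 were called lower, Epcam (-1.77) and Cdh1 (-1.07), against 1.97% of all tested. Krt18, the brightest of them and also in the trophoblast list, was higher on every hypoxia array. Gzma, Cd79b, Ms4a1, Gcm1, Epb42 and Cldn4 were at or below the level of the bacterial controls. The 3′ minus 5′ log2 signal of the beta-actin control was 0.58, 0.77 and 0.66 in hypoxia and 0.53, 0.54 and 0.41 in ambient, and that of GAPDH -0.04, 0.06 and -0.01 in hypoxia and -0.05, -0.01 and -0.05 in ambient. The part of these in the shift of ribosomal protein genes was not tested.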

How the data were processed

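Per the labels' protocols, Trizol-extracted total RNA from 6 metrial gland samples was made into biotinylated cRNA for Affymetrix arrays. The authors' deposited signal is on a log2 scale, as read from its range (2.98 to 14.90), with 1 value for each probe set on each array. MAS5 and Affymetrix Expression Console are listed in the submitters' processing notes, without their roles. How background was corrected and arrays were scaled is not given in the sources used here. A method that equalises arrays hides a change common to most genes, and signal near the ceiling may be compressed.

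Of 31099 probe sets, 57 controls were left out, and so were the 40% of the rest with the lowest mean over all arrays, which kept 18625 (mean at least 5.74). As the values were already log2, the floor planned for linear signal was not needed. Of the 31042 probe sets that are no controls, 20826 carried 1 gene symbol, 436 several and 9780 none. Gene IDs of 42 of the 44 members were in the RefSeq gene table of GRCr8 with the same symbol, and Rpl37a and Rps9 keep the platform's name.

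Hypoxia was compared with ambient with limma 3.58.1 in R 4.3.3 (lmFit and eBayes with a variance trend, group as the only term, two-sided, Benjamini-Hochberg over all kept probe sets). Differences are hypoxia minus ambient, and the residual SD is that within groups. The fit was tested on simulated data. Precision is limited by the number of arrays. Deviations from group means correlated at 0.0124, 0.0706 and 0.0705 between arrays of the same number, so the numbers were not taken to pair the samples.

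Named genes were members past the threshold, the 10 most positive and 10 most negative, a fixed set of 14 genes, those with the 3 lowest and 3 highest residual SDs, and from each other list up to 4 past the threshold or the 2 of smallest p. Of the fixed set, Rps27a, Rps4x, Rpl39l and Fau had no probe set of their own, and 1 gene is not reported here. Further members are named to account for all of them. Members and lists were chosen with earlier results of these data known. The mitochondrial ribosomal protein list and the grouping of members by role were added after values were seen. Alternatives were 3 scalings, 2 filters, an offset, 3 variance settings, the replicate number as a block, the median over a gene's probe sets, and each array left out.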

Additional observations from a re-analysis of the deposited data

How the results depend on the processing

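The median difference of the ribosomal protein genes was negative under every alternative, between -0.098 (75th percentile centring) and -0.053, and the count that rose was 0 under each. The count that fell was 2 with the 60% filter, array weights, 75th percentile centring and quantile normalization (Rpsa and Rps3), and 0 with no variance trend and with the median over a gene's probe sets. It was 0 or 1 with an array left out, with 1 only without hypoxia replicate 3. With the replicate block it was 0 (Rpsa -0.195, adjusted p = 0.0553) and 1317 probe sets were called. Of all probe sets, 1116 were called, 749 higher and 367 lower, and 267 (without ambient replicate 3) to 1029 (without hypoxia replicate 3) with an array left out. Quantile normalization gave 645 higher and 521 lower, and 75th percentile centring 628 and 578.

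Differences near 0 changed sign without being called. With 75th percentile centring Rpl37a was at -0.023, Rpl39 at -0.020 and Rps24 at -0.003, with array weights Rpl37a at -0.000 and Rpl39 at -0.022, and with quantile normalization Rpl39 at -0.011 and Rps29 at 0.006. With an array left out, Rpl34 lay between -0.027 and 0.006, Rpl37a between -0.013 and 0.028, Rpl39 between -0.025 and 0.047, Rps28 between -0.064 and 0.020 and Rps29 between -0.047 and 0.027. With 3 arrays a group, a difference of a few percent in 1 gene was below what these data can call.

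The first member list was extended and narrowed after seeing the data, by the probe sets of several symbols (-0.059) and to means of at least 12 (-0.064). The difference between large and small subunits lay between -0.019 and 0.017 over the alternatives.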
